A study of Mus musculus with 8 samples.

Results

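Type I interferon response genes are the genes that cells switch on when interferon alpha or beta binds its receptor. A list of 41 such genes was followed by symbol through 4 states of mouse hepatic stellate cells, and 39 of them were among the 14162 genes of the deposited table. Oas3 and Mx1 were not found in it. Hepatic stellate cells store vitamin A in the healthy liver and turn into contractile, collagen-producing myofibroblasts when activated. The study measured 8 RNA-seq libraries, a and b for each of 4 groups: quiescent stellate cells, activated stellate cells, and activated cells that carried either the microRNA miR-15a or a control microRNA. The submitters' title states reprogramming of activated cells toward quiescence as the subject.

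The labels name C57BL/6J mice and immunodeficient SCID mice and do not assign a strain, age or sex to a library. They give no dose, time or delivery route for the microRNAs, and no genotype beyond the strains. Whether libraries a and b came from separate animals or cultures is not stated, so each p-value reflects the spread of these libraries only, which may be technical. The deposited values are normalized whole numbers, all 8 libraries hold the same 910 distinct values, and the sequencing depth is unknown.  Values of different genes are not corrected for length and are not compared with each other here.

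In the type I interferon pathway, binding of interferon to IFNAR1 and IFNAR2 activates the kinases JAK1 and TYK2, which phosphorylate STAT2. STAT2 acts with IRF9 in the factor ISGF3, which binds the interferon-stimulated response element (ISRE) in the promoters of its targets. The targets include RNA and DNA sensors, enzymes that degrade or mark viral RNA, proteins that trap or modify viral proteins, and IRF7, which raises interferon production further. In the liver, macrophages and sinusoidal endothelial cells as well as stellate cells can respond to interferon, so the genes mark a signalling state and not a cell type.

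The ISRE core was sought in the members' promoters because it is the element through which ISGF3 acts. It was searched as GAAA, any 2 bases and GAAA, or the same with TTTC on the other strand, in 250 bases before to 50 bases after each annotated start (RefSeq, GRCm38.p6). A promoter was listed for 31 of the 39 members, and 12 of these (38.7%) held the motif: Stat2, Ddx58, Ifih1, Eif2ak2, Oas1a, Ifit1, Ifit3, Bst2, Ifitm3, Rsad2, Isg15 and Trim30a. The same motif was found in 396 of the 10539 genes of the table with a promoter (3.76%) and in 3.44% of all 32851 promoters listed. With a spacer of 1 to 3 bases, 19 of the 31 held it (61.3%), against 8.7% of the genes of the table. A match is a description of letters and not a measured binding site. The windows below lie upstream of the start, run 5′ to 3′ along the gene's strand, and carry the motif in capitals.
Isg15, chr4:156200871-156200900, minus strand, 3 overlapping matches: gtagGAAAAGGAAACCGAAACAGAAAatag
Ifit1, chr19:34640775-34640804, plus strand: caggcttcagTTTCACTTTCcagtctcagt
Ifit1, chr19:34640794-34640823, plus strand: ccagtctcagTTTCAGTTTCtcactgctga
Ifit3, chr19:34583363-34583392, plus strand: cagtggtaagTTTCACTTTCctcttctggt
Ifit3, chr19:34583397-34583426, plus strand: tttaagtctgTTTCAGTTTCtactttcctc
Bst2, chr8:71537580-71537609, minus strand, 2 overlapping matches: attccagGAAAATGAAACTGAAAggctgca
Rsad2, chr12:26456553-26456582, minus strand: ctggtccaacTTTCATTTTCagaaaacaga
Stat2, chr10:128270266-128270295, plus strand: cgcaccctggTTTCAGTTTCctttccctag

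The microRNA under study, mouse miR-15a-5p, has the mature sequence below (RefSeq, chr14:61632075-61632096, minus strand), with its seed at bases 2 to 8 in capitals.
miR-15a-5p: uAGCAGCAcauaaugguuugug
The matching site in a 3′ UTR reads TGCTGCT. In the longest annotated 3′ UTR (GENCODE M21, GRCm38) it was present in 6 of 39 members (15.4%) and in 2989 of 12527 genes (23.9%). The members were Stat2, Oas1a, Ifit3, Rsad2, Herc6 and Parp14. The median 3′ UTR was 880 bases over the 39 members and 1165 over all genes. The sites of Ifit3 and Parp14 are shown as examples with the seed match in capitals. All 6 genes were called higher with miR-15a over its control.
Ifit3, chr19:34588485-34588491, plus strand, exon 2 of 2: ctgtggagTGCTGCTtatgggga
Parp14, chr16:35833406-35833412, minus strand, exon 17 of 17: taagtgtgTGCTGCTtcagaagt

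**Figure D1:**
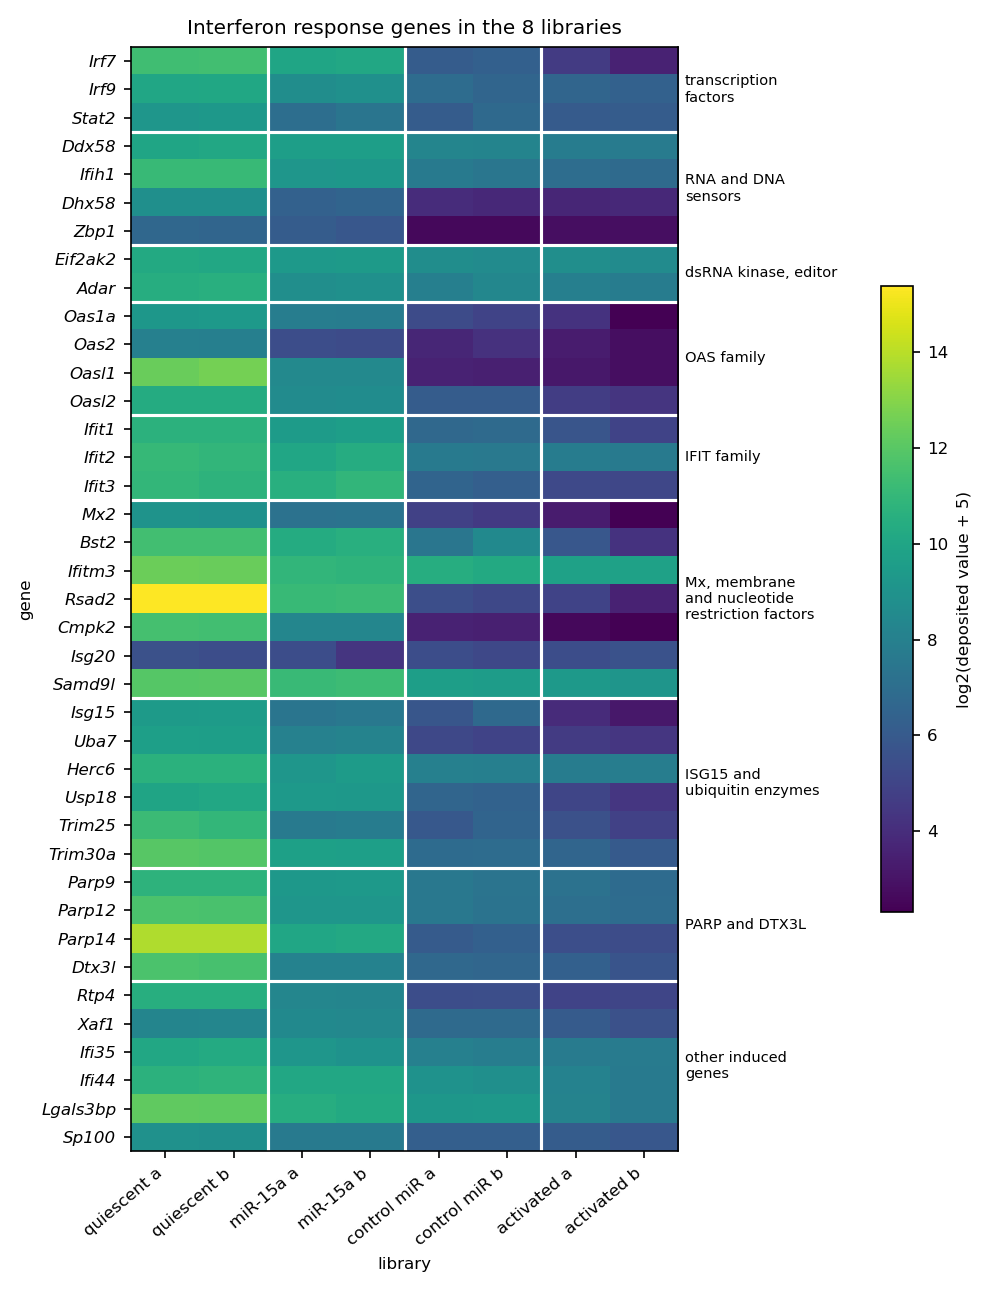
Deposited value of each of the 39 interferon response genes (vertical axis, grouped by role) in each of the 8 libraries (horizontal axis), as log2(value + 5). Quiescent libraries are brightest in nearly every line, the miR-15a libraries come next, and the activated and control microRNA libraries are darkest, while Isg20 departs from this order.

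Activated cells held far less of these transcripts than quiescent cells, and miR-15a libraries held part of the difference. Of the 39 members 38 were lower in activated than in quiescent cells and none was higher, at an adjusted p under 0.05 in limma with Benjamini-Hochberg adjustment over 13150 genes. Of all genes tested 34.1% were called lower and 45.4% higher. The members' median log2 fold change was -4.91 and ranged from -11.10 to 0.02, against a median of 0.21 over all genes. With miR-15a 38 members were higher than with the control microRNA and none was lower, where 14.4% of all genes were called higher and 15.4% lower. Their median log2 fold change was 1.87, from -0.42 to 5.87, against -0.07 over all genes. Dividing each library by its median ratio moved the median of all genes by -0.27 and 0.06 in these comparisons, by 0.14 and 0.08 for miR-15a and the control microRNA over activated cells, and by -0.13 for miR-15a over quiescent cells. Under it the share of calls that were higher changed from 57.1% to 46.7% on activation and from 48.3% to 59.3% with miR-15a, while the members' counts stayed at 38 lower and 38 higher.

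All 39 members reached 10 in 2 or more libraries, the condition for a test, and 29 of them were at least 10 in every library. In activated cells 6 members were under 10 in both libraries, and with the control microRNA 3 were. Fold changes, on the log2(value + 5) scale, understate the change of such genes. Summed over the members, the quiescent libraries held 124879 and 124621, the activated libraries 4927 and 4262, the miR-15a libraries 25889 and 27257, and the control libraries 7030 and 6983. In percent of the quiescent mean, the activated sums were 3.95 and 3.42, the miR-15a sums 20.8 and 21.8 and the control sums 5.64 and 5.6. By these sums the miR-15a libraries lay above both other activated groups and below the quiescent ones, with no overlap. The sums weigh genes with high values most, and Rsad2 alone stood at 42350 in both quiescent libraries and 2224 and 2360 with miR-15a.

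**Figure D2:**
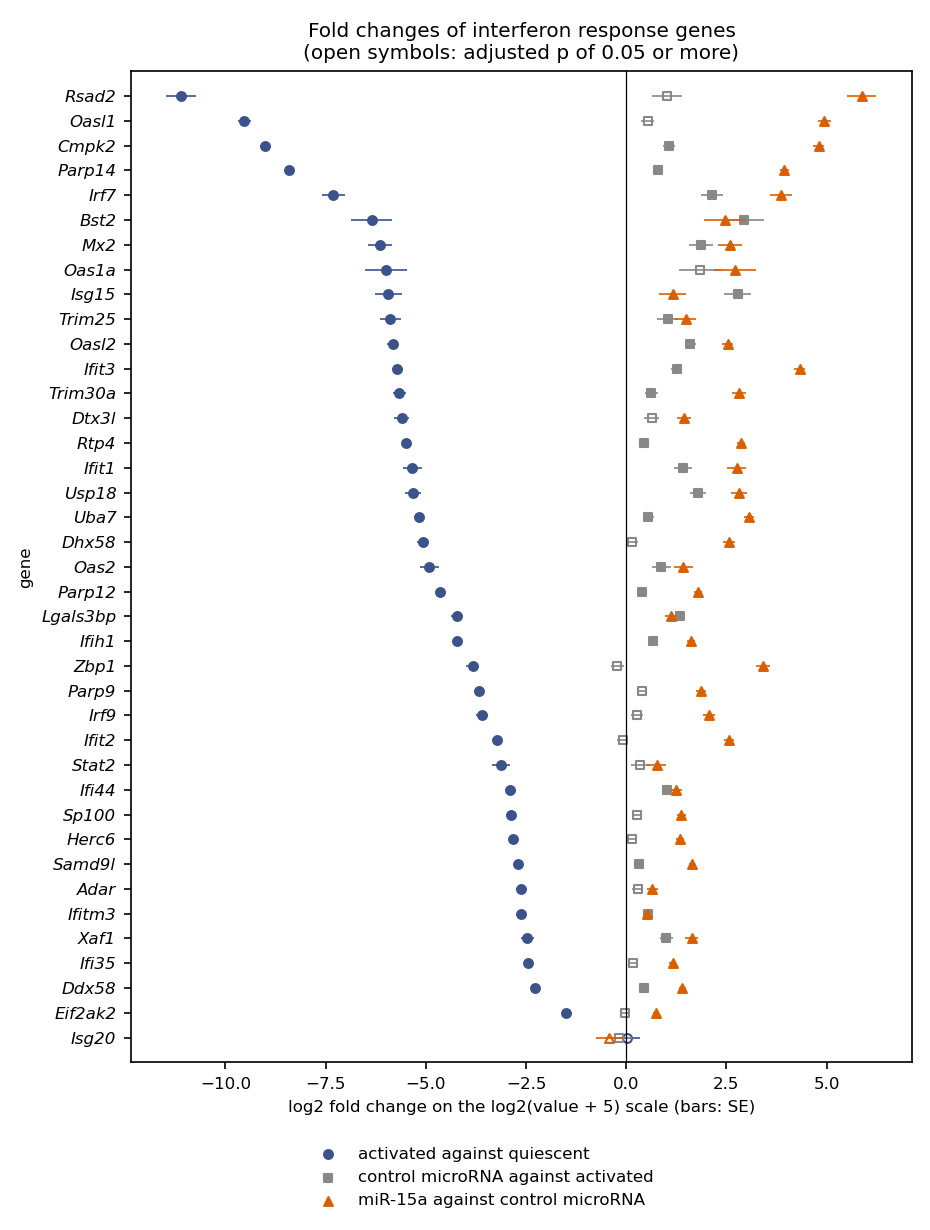
Log2 fold change (horizontal axis, log2(value + 5) scale, bars are SE) of each gene (vertical axis, ordered by the change on activation) in 3 comparisons with 2 libraries per group. Activation lies left of 0 for all genes but Isg20, miR-15a against its control lies right of 0 for all but Isg20, and the control microRNA against activated cells lies close to 0 for many genes.

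The pathway's own transcription factors followed the common pattern. Irf7, the factor that amplifies interferon production, stood at 2670 and 2700 in quiescent cells, 19 and 7 in activated cells, 1019 and 1146 with miR-15a and 64 and 76 with the control microRNA. The miR-15a libraries exceeded both the activated and the control libraries by a wide margin, and no groups overlapped. Irf7 fell by 7.31 ± 0.28 (SE) on activation (adjusted p 2.1e-07) and rose by 3.86 ± 0.28 with miR-15a (adjusted p 8.2e-05). Irf9, the DNA-binding subunit of ISGF3, was at 1063 and 1082, 92 and 77, 422 and 470, and 118 and 89 in the same order of groups. Its activated and control libraries overlapped, and the control lay at 0.27 ± 0.15 above activated cells without passing the test. Stat2, its partner, showed the smallest rise with miR-15a of the 3 factors, 0.75 ± 0.23 (adjusted p 0.042), on values of 124 and 164 against 64 and 106. Without control library a this became 0.41 (adjusted p 0.143). Irf9 rose by 2.07 ± 0.15.

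The 4 sensors of viral nucleic acid had a median log2 fold change of -4.02 on activation and 2.08 with miR-15a over its control. Ifih1 (MDA5), which detects long RNA duplexes, was at 2202 and 2250 in quiescent cells, 122 and 109 in activated cells, 572 and 585 with miR-15a and 200 and 172 with the control. Ddx58 (RIG-I), which detects RNA ends, was at 1011 and 1130, 222 and 211, 777 and 799, and 302 and 288. Ddx58 therefore kept a larger part of its quiescent level in every activated group than Ifih1 did, at 73.6% with miR-15a. Dhx58, the regulator LGP2, was near the low end of the table in activated and control cells, at 8 to 11, and at 78 and 88 with miR-15a. Zbp1, a sensor of left-handed nucleic acid, was at 1 or 2 in every activated and control library and at 64 and 54 with miR-15a, against 98 and 92 in quiescent cells. All 4 sensors were called lower on activation and higher with miR-15a.

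The kinase PKR and the RNA editor ADAR had smaller median changes than any other role, -2.06 on activation and 0.70 with miR-15a. Eif2ak2 (PKR), which halts translation when it binds RNA duplexes, was at 1190 and 1146 in quiescent cells, 432 and 384 in activated cells, 672 and 676 with miR-15a and 409 and 390 with the control. The activated and control libraries overlapped. Eif2ak2 had the smallest called decrease on activation of the 38 members, -1.51 ± 0.08, and rose by 0.75 ± 0.08 with miR-15a. Adar, which converts adenosine to inosine in RNA duplexes, was at 1386 and 1486, 244 and 216, 434 and 458, and 244 and 325. It rose by 0.65 ± 0.13 with miR-15a (adjusted p 0.011).

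The oligoadenylate synthetases make the messenger that activates RNase L. Oasl1, a relative without that enzyme activity that regulates IRF7 translation, was at 5343 and 6462 in quiescent cells, 4 and 2 in activated cells, 343 and 350 with miR-15a and 7 and 6 with the control. It fell by 9.53 ± 0.16 and rose by 4.94 ± 0.16, the second largest change of any member in both comparisons. Oasl2 was at 1296 and 1282, 21 and 15, 386 and 400, and 64 and 64. The 4 groups were apart for both genes. For Oasl1 the activated and control libraries were all under 10, and their difference of 0.53 ± 0.16 did not pass the test (adjusted p 0.065). Oas1a and Oas2 moved the same way, with Oas1a at 224 and 222 with miR-15a against 34 and 26 with the control. Reads shared with Oas1g, which was not analysed here, are uncertain for Oas1a.

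The IFIT proteins bind viral RNA and block its translation. Their genes lie side by side on chromosome 19, Ifit2 and Ifit3 7111 bases apart and Ifit3 and Ifit1 52139 bases apart. Ifit3 was at 1976 and 1744 in quiescent cells, 32 and 29 in activated cells, 1508 and 1896 with miR-15a and 88 and 72 with the control. The miR-15a libraries overlapped the quiescent ones, and the difference of -0.13 ± 0.14 did not pass the test (adjusted p 0.43). Ifit2 was at 2106 and 1896, 216 and 202, 1036 and 1346, and 206 and 186, and the activated and control libraries overlapped. Ifit1 reached 702 and 782 with miR-15a against 103 and 108 with the control. All 3 were called higher with miR-15a, Ifit3 by 4.32 ± 0.14 and Ifit2 by 2.56 ± 0.13. Copies of Ifit1 and Ifit3 that share their sequence were not analysed here, so the split of reads between them is uncertain.

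The restriction factors held both the largest changes and the exception. Rsad2 (viperin), which makes a nucleotide that stops viral RNA synthesis, was at 42350 in both quiescent libraries, 26 and 7 in activated cells, 2224 and 2360 with miR-15a and 39 and 30 with the control. The groups did not overlap, but the control's difference from activated cells, 1.02 ± 0.37, did not pass the test (adjusted p 0.11). Rsad2 fell by 11.10 ± 0.37 on activation (adjusted p 1.1e-07) and rose by 5.87 ± 0.37 with miR-15a over its control (adjusted p 4.4e-05), the largest change of any member in both. Cmpk2, a nucleotide kinase transcribed away from Rsad2 12751 bases off on chromosome 12, was at 2922 and 2700, 1 and 0, 312 and 318, and 7 and 6. It fell by 9.00 ± 0.14 and rose by 4.80 ± 0.14.

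The other restriction factors moved less far. Ifitm3, a membrane protein that blocks viral entry, was at 5563 and 5345 in quiescent cells and 886 and 886 in activated cells. It was at 1936 and 1772 with miR-15a and 1372 and 1209 with the control. Its rise with miR-15a was 0.52 ± 0.08 (adjusted p 0.0026), the smallest called rise of any member. Bst2 (tetherin), which holds virus particles at the cell surface, was at 1296 and 1508 with miR-15a, against 172 and 362 with the control and 54 and 14 in activated cells. Mx2 and Samd9l were also called lower on activation and higher with miR-15a.

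Isg20, an RNA exonuclease, was the lone member not called on activation and with miR-15a over its control or over activated cells. It was at 42 and 37 in quiescent cells, 37 and 43 in activated cells, 38 and 15 with miR-15a and 38 and 31 with the control. The groups overlapped, and none of its 5 comparisons passed the test. Without miR-15a library a its difference from the control became -0.98 and was called (adjusted p 0.0296), and without library b it became 0.13 (adjusted p 0.714).

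The next group holds the ubiquitin-like modifier ISG15, enzymes that attach or remove it, and ubiquitin ligases of the TRIM family. With miR-15a over its control their rises ran from 1.16 for Isg15 to 3.06 for Uba7, the enzyme that activates ISG15. Isg15 was at 696 and 718 in quiescent cells, 10 and 4 in activated cells, 166 and 179 with miR-15a and 52 and 106 with the control. The miR-15a libraries lay above both controls. Its promoter holds 3 overlapping ISRE cores in the window shown above, and its rise with miR-15a had an SE of 0.33 (adjusted p 0.037). Trim30a, a ubiquitin ligase that restrains signalling, was at 4088 and 3812, 90 and 59, 852 and 826, and 114 and 116. Herc6, the mouse ligase that joins ISG15 to proteins, was at 1614 and 1604, 220 and 228, 568 and 710, and 256 and 239. Usp18, which removes ISG15 and restrains the receptor, was at 655 and 625 with miR-15a against 92 and 81. All 6 genes of the group were called lower on activation and higher with miR-15a. Reads shared among Trim30a and its relatives are uncertain, and Trim30d, a copy in the table, stood at 784 and 842, 12 and 14, 380 and 386, and 130 and 151.

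Among the ADP-ribosyltransferases, Parp14 changed most. It was at 14432 and 14426 in quiescent cells, 39 and 36 in activated cells, 1068 and 1182 with miR-15a and 62 and 75 with the control. Parp12, which marks viral proteins, was at 3263 and 3203, 130 and 119, 577 and 572, and 180 and 149. The groups were apart for both genes. Parp14 fell by 8.41 ± 0.10 and rose by 3.95 ± 0.10 with miR-15a. Parp9 and its partner Dtx3l, whose genes overlap by 682 bases on opposite strands, were both lower on activation and higher with miR-15a. Whether the counting used strand is not given in the sources used here.

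Of the remaining induced genes Lgals3bp, a secreted glycoprotein, was at 4663 and 4446 in quiescent cells, 281 and 202 in activated cells, 1420 and 1232 with miR-15a and 592 and 624 with the control. Ifi44 was at 1694 and 1772, 268 and 194, 1138 and 1110, and 492 and 448. The groups were apart for both. Xaf1, a partner of cell death inhibitors, was at 307 and 308 in quiescent cells and 359 and 330 with miR-15a, and this difference of 0.16 ± 0.17 did not pass the test (adjusted p 0.43). Rtp4, Ifi35 and Sp100 were called lower on activation and higher with miR-15a.

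The control microRNA was compared with untreated activated cells because both the miR-15a and the control libraries are treated. Of the 39 members 23 were higher with the control microRNA and none was lower, where 7.18% of all genes were called higher and 6.61% lower. The members' median log2 fold change was 0.62, from -0.22 to 2.93, against -0.03 over all genes. The largest were Bst2 at 2.93 ± 0.51 (adjusted p 0.013), Isg15 at 2.78 ± 0.33 (adjusted p 0.0035) and Irf7 at 2.14 ± 0.28 (adjusted p 0.0049), and the smallest were Eif2ak2 at -0.03 (0.05 after median-ratio scaling), Ifit2 at -0.09 and Herc6 at 0.14. Not called were Adar, Dhx58, Dtx3l, Eif2ak2, Herc6, Ifi35, Ifit2, Irf9, Isg20, Oas1a, Oasl1, Parp9, Rsad2, Sp100, Stat2 and Zbp1. By role, 5 of 6 genes of the ISG15 group and 5 of 7 restriction factors were called, but neither PKR nor ADAR. The rise with miR-15a over activated cells covered 38 members with a median of 2.51 (all genes -0.10), where 16.8% of genes were called higher and 21.6% lower. It was largest for Rsad2 at 6.90 ± 0.37, Irf7 at 6.00 ± 0.28 and Cmpk2 at 5.87 ± 0.14, and smallest among called members for Eif2ak2 at 0.72 ± 0.08 and Adar at 0.94 ± 0.13. Both comparisons share the activated libraries. By leaving out activated library b the 23 became 15, and by leaving out control library b they became 14. Fitted on the control and activated libraries alone, 2 members were called, Oasl2 and Ifit3. Cmpk2 and Oas2, called in the main fit, fell under the filter on low values there and were not tested. By leaving out control library b the Bst2 difference fell to 2.40 (adjusted p 0.0722). After median-ratio scaling the share of calls that were higher was 73.5% against 52.1% for the control microRNA and 65.8% against 43.7% for miR-15a over activated cells.

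Members differed in how near the miR-15a libraries came to the quiescent level. The comparison of miR-15a with quiescent cells called 35 members lower and 0 higher, where 34.4% of all genes were called lower and 37.1% higher. The median log2 fold change was -1.56, against 0.04 over all genes. The largest deficits were -4.21 ± 0.37 for Rsad2, -4.06 ± 0.16 for Oasl1 and -3.68 ± 0.10 for Parp14, and the smallest called was -0.44 ± 0.08 for Ddx58. The 4 not called were Bst2 (-0.96 ± 0.51, adjusted p 0.13, or 0.000396 with the 2 groups fitted alone), Ifit3, Isg20 and Xaf1. As a mean of 2 libraries in percent of the quiescent mean, the members' median was 34.0 with miR-15a, 8.26 with the control and 2.18 in activated cells. With miR-15a the lowest were Rsad2 at 5.41%, Oasl1 at 5.87% and Parp14 at 7.80%, and the highest were Ddx58 at 73.6%, Ifit3 at 91.5% and Xaf1 at 112%. Over 50% lay 11 members, and under 10% lay 5, these 3 with Dtx3l at 8.52% and Trim25 at 9.42%. The genes that fell furthest on activation also rose most over the control. Across the 39 genes the 2 log2 fold changes correlated at a Pearson r of -0.857 and a Spearman rho of -0.741, and across all genes at -0.6 and -0.37. The points share the table's common scale, genes are not independent, and no test is given.

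**Figure D3:**
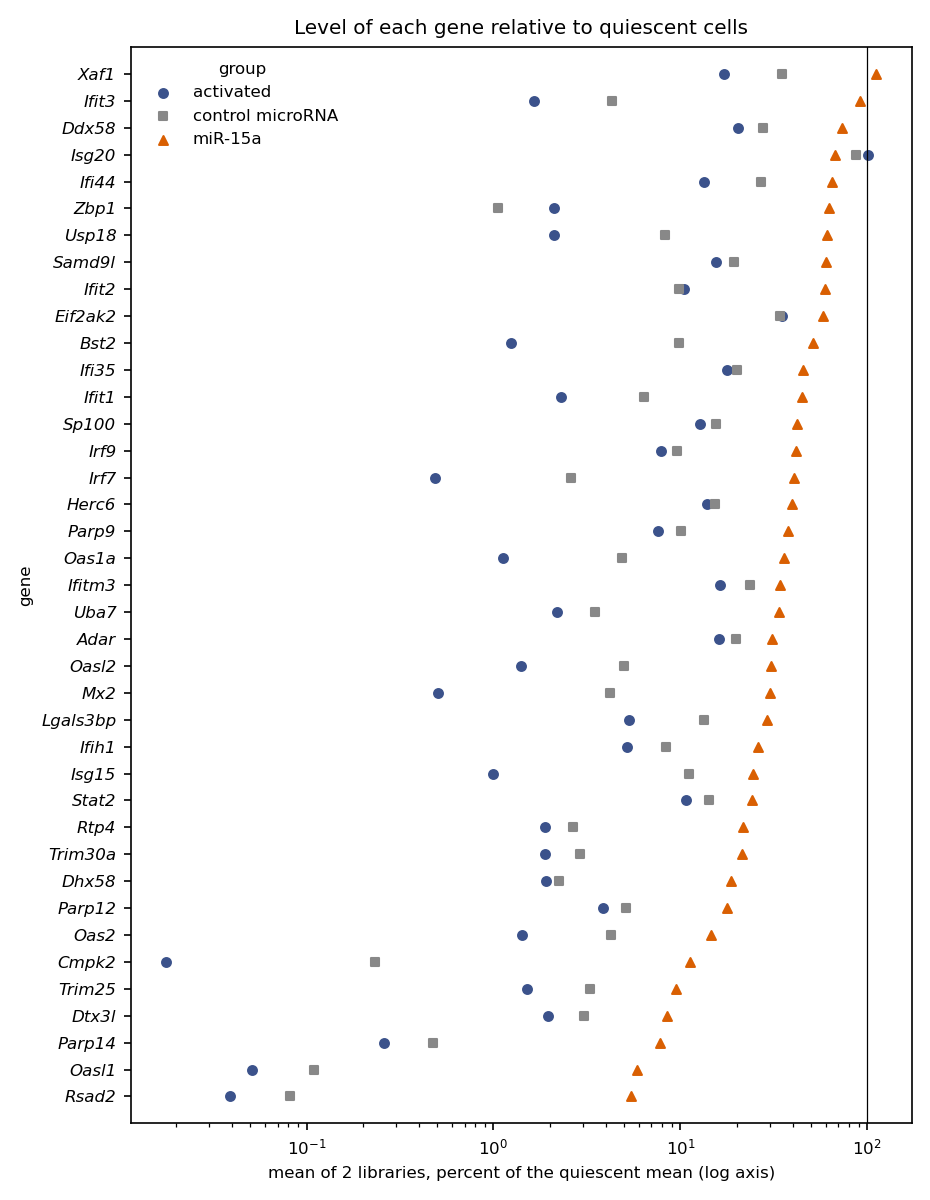
Mean of 2 libraries in percent of the quiescent mean (horizontal log axis) for each gene (vertical axis, ordered by the miR-15a level), for the activated, control microRNA and miR-15a groups. The miR-15a points run from 5.41% for Rsad2 to 112% for Xaf1, and only Isg20 is higher in activated cells than with miR-15a.

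Members with the ISRE core were split from those without it as a description. On activation the median log2 fold change was -5.50 for the 12 with the motif and -3.59 for the 19 without it. With miR-15a over its control the medians were 2.04 and 1.63, and over activated cells 3.68 and 2.34. The ranges overlapped in each comparison. The 6 members with a miR-15a seed site, Stat2, Oas1a, Ifit3, Rsad2, Herc6 and Parp14, changed by 0.75 to 5.87 with miR-15a over its control and were called higher, as were 38 of all 39 members, with a site or without, so the count sets them apart from no others. The Stat2 call was lost in several alternatives.

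The count of 38 members higher with miR-15a over its control was 34 to 38 with a library left out and 35 to 38 in the other alternatives. Isg15 and Stat2 lost their calls with a constant variance prior (adjusted p 0.0575 and 0.0618), with no filter on low values (0.0642 and 0.0676) and with the 2 groups fitted alone (0.0981 and 0.15). Isg15 and Oas1a lost theirs at a pseudocount of 1 (0.0741 and 0.085), and Adar with the 2 groups alone (0.0665). Isg15 also lost its call without miR-15a library a (adjusted p 0.114), miR-15a library b (0.144), control library a (0.141, log2 fold change 0.68) or either quiescent library (0.0679). Stat2 also lost it without either miR-15a library (0.0583 without a, 0.204 without b, log2 fold change 0.56), either quiescent library (0.0733 and 0.0732), either activated library (0.0679) or control library a (0.143, log2 fold change 0.41). Adar lost it without miR-15a library b (0.0631), and Bst2 without miR-15a library b (0.0669) or control library a (0.053). Over activated cells Stat2 lost its call without miR-15a library b (0.0563). Against quiescent cells Oas1a lost its call without any single quiescent, miR-15a or control library (0.0534 to 0.139), with a constant variance prior (0.0567), with no filter (0.0654) and at a pseudocount of 1 (0.251), where Mx2 lost its call too (0.0644). Usp18 lost it without quiescent library b (0.0866) or miR-15a library a (0.0522) or b (0.0697), and Zbp1 without miR-15a library b (0.0533). Bst2 gained one with the 2 groups fitted alone (0.000396) and without either activated library (0.0311 and 0.0309), and Isg20 without miR-15a library a (0.00423).

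The other genes of the pathway moved less uniformly. Of 9 receptor and kinase genes 7 were lower on activation and 4 higher with miR-15a over its control. Of all genes tested 34.1% were lower on activation, and with miR-15a over its control 14.4% were higher and 15.4% lower. Among the 4 receptor and kinase genes called higher, the kinase Jak2 rose by 0.98, the receptor chain Ifnar2 by 0.74 and the interferon gamma receptor chain Ifngr2 by 0.30. Ifnar1, the other receptor chain, was level at 690 and 670, 632 and 634, 572 and 715, and 708 and 632, and passed no test. Of 16 genes of nucleic acid sensing 13 were lower on activation, and with miR-15a 7 were higher and 1 lower. The endosomal trafficking factor Unc93b1 rose by 1.54 and the RNA sensor Tlr7 by 1.21, while the adaptor Ticam1 fell by 0.66.

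Irf8, a factor of myeloid cells, rose by 3.93 ± 0.17 with miR-15a, Irf1 by 1.74 and Irf5 by 0.76, and these were the 3 called of 8 other interferon regulatory factors. Irf3 was not called in any comparison. Of 6 tested targets of type II interferon 4 rose, among them the chemokine Cxcl10 by 4.29 and the adhesion molecule Icam1 by 4.20. Of 9 negative regulators 1 rose, Ptpn6 by 2.41, and 1 fell, Ptpn11 by 0.29. Beside these counts, 14.4% of all genes tested were called higher with miR-15a over its control and 15.4% lower. Of 11 type I interferon genes sought, Ifnk alone was in the table, at 80 and 58 in quiescent cells and at 1 or 2 in every other library.

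The quiescent and miR-15a libraries also held more macrophage and endothelial transcripts than the activated and control libraries, and in bulk RNA fewer cells of a type and less RNA per cell cannot be told apart. The 19 macrophage markers in the table (Adgre1 and Timd4 were not found) summed to 140598 and 162125 in quiescent cells, 2257 and 2052 in activated cells, 13902 and 15301 with miR-15a and 2837 and 2598 with the control. In percent of the quiescent mean the miR-15a sums were 9.18 and 10.1 and the control sums 1.87 and 1.72. Of these markers 18 were lower on activation, and with miR-15a 18 were higher and Cx3cr1 was lower. Csf1r, the receptor that macrophages depend on, was at 20500 in both quiescent libraries, 149 in both activated libraries, 510 and 450 with miR-15a and 190 and 154 with the control. Its miR-15a mean, 2.34% of the quiescent mean, was the lowest of the 19 markers, whose median was 21.6%. Of the defining markers Marco was at 0 in activated library b.

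The 20 endothelial markers summed to 281606 and 210290, 1050 and 873, 12958 and 13190, and 1410 and 1871 in the same order, and 17 were higher with miR-15a while Flt1 was lower. Pecam1 and Flt4 were at 0 in activated library b. Hepatocyte marker sums, in percent of the quiescent mean, were 9.42 and 13.4 with miR-15a and 1.36 and 8.85 with the control. In the same measure taken gene by gene, the miR-15a median was 21.6% for the 19 macrophage markers, 11.1% for the endothelial markers and 11.7% for 11 hepatocyte markers, beside 34.0% for the interferon response genes. In control cells the medians were 2.19%, 0.388%, 6.51% and 8.26%. The part of these cell types in the interferon result was not tested.

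Of the plasmacytoid dendritic cell markers 5 of 9 were in the table, and Siglech was not found. In percent of the quiescent mean their sums were 4.9 and 4.67 in activated cells, 35.1 and 38 with miR-15a and 8.86 and 13.1 with the control. On activation 3 of the 5 were lower and 1 higher, beside 34.1% and 45.4% of all genes tested. The higher one was Cox6a2, at 2 in both quiescent libraries and at 40 and 53 in activated cells. Ccr9, at 21 and 19 and then 16 and 12, was not called. Bst2, itself an interferon response gene, and Irf8 and Tcf4, which other cells also express, were higher with miR-15a over its control (Tcf4 by 0.75 ± 0.11), and Ccr9 and Cox6a2 were not called. Their part in the result was not tested. T, NK and B cell markers (2 of 13) and neutrophil markers (3 of 10) were nearly all not found. Of 16 stellate and myofibroblast markers 15 were in the table, without Lrat, the enzyme that stores vitamin A. On activation 10 of the 15 were higher and 5 lower (Des, Rgs5, Reln, Hgf and Dcn), and with miR-15a over its control Reln and Hgf were higher and Col1a1, Pdgfrb, Postn and Dcn lower. Their sums were 21404 and 23076 in quiescent cells and 572386 and 563894 in activated cells, where Acta2, Col1a2 and Lox stood at the table's maximum of 125636, with 540528 and 404506 in the miR-15a libraries and 495120 and 431415 in the control libraries. Reln, a marker of quiescent stellate cells, was at 7724 and 8724 in quiescent cells and at 6 to 82 in all other libraries. Xist, transcribed from the inactive X chromosome, was at 8724 in both quiescent libraries, 169 and 21 in activated cells, 3373 in both miR-15a libraries and 3373 and 5027 with the control. Ddx3y, on the Y chromosome, was at 44 and 40, 2606 and 2570, 1046 and 1006, and 1282 and 1268. The groups thus also differ in sex-linked transcripts, whose part in the result was not tested.

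**Figure D4:**
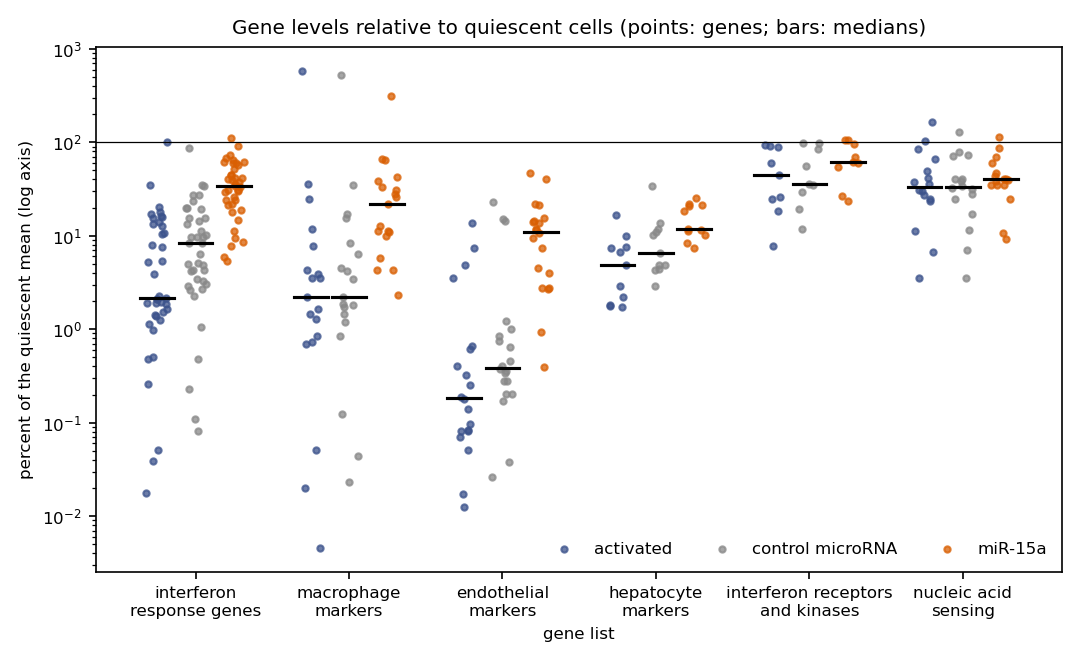
Mean of 2 libraries in percent of the quiescent mean (vertical log axis) for each gene of 6 lists (horizontal axis), in the activated, control microRNA and miR-15a groups; points are genes and bars are medians. The miR-15a median is 34.0% for the interferon response genes, 21.6% for macrophage markers and 11.1% for endothelial markers.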

How the data were processed

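The deposited table is called read counts in its name. STAR, Subread, featureCounts and the build mm10 appear, without versions, in the submitters' processing notes. As deposited by the authors, its values are a normalized score: whole numbers that are the same 910 in every library, with totals from 10193036 to 10234768, as rank-based normalization leaves them, a step that per the file headers and labels is not recorded. Here limma 3.58.1 in R 4.3.3 was run on log2(value + 5) for the 13150 genes with at least 10 in at least 2 libraries. The model held a mean for each of 4 groups (residual degrees of freedom: 4), with a mean-dependent variance prior, Benjamini-Hochberg adjustment and a call at an adjusted p under 0.05. The count-model test was not used because the unit does not allow it. The procedure was tested on simulated data with independent normal noise. Those data lacked the shared steps of the deposited values, so the test does not cover their effect. Members and gene lists were chosen with earlier results of these data known. By rule, the 2 members per role with the highest mean, the 3 largest and 3 smallest changes per comparison and members not called are named. Other members were named after their values were seen. High values lie on shared steps, 8 members were tied within at least 1 group, and SEs may then understate the spread.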

Additional observations from a re-analysis of the deposited data

How the results depend on the processing

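The alternatives were other pseudocounts, no filter or a filter of 50, median-ratio scaling, a constant variance prior, a fit of the 2 groups alone, a replicate block and each library left out in turn. In the last, a lone library is assumed to vary like the other groups. In the fit of the 2 groups alone the filter used only their libraries. Cmpk2 and Oas2 were therefore not tested there for the control microRNA over activated cells. The count of members called higher with the control microRNA over activated cells was 23; it was 2 with the 2 groups alone and 14 to 22 with a library left out. Members called lower with miR-15a, over its control and over activated cells, numbered 0 to 1 with a library left out. Over all genes tested, the differences of library a from library b correlated weakly between groups, at r from -0.0666 to 0.0872. Whether the letters pair the libraries is not stated, and such correlations cannot settle it. With the replicate block the counts were 38 lower on activation, 38 and 38 higher with miR-15a, 35 lower against quiescent cells and 21 higher with the control microRNA. Direction turned for Isg20 on activation (-0.23 after median-ratio scaling, -0.081 to 0.11 with a library left out) and for Isg20 with miR-15a over its control (-0.98 to 0.13). It also turned for Eif2ak2 with the control microRNA (0.054 after scaling, -0.11 to 0.056) and Ifit3 against quiescent cells (-0.299 to 0.030). Causes were not tested. The ISRE count was 19 with a spacer of 1 to 3, and the 6-base seed match gave 13 members. Unknown depth limits the lowest values.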
